A study of Mus musculus with 24 samples.

Results

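Accessible chromatin was examined at 10 genes through which GC B cells are positively selected and return to the cell cycle: Myc, Tfap4, Batf, Egr1, Egr2, Egr3, Nr4a1, Ccnd2, Ccnd3 and Foxo1. Each gene was represented by the consensus peaks that overlapped its annotated gene body or the 50 kb on either side of it, which gave 149 of the 65483 peaks in the deposited table. The data were ATAC-seq, in which a transposase inserts adapters into open DNA, on splenic GC B cells sorted 10 days after immunization with SRBC (sheep red blood cells). All mice carried 1 copy of Cg1Cre, which is driven from the IgG1 constant region and acts in B cells that enter the GC. The control group was Cg1Cre+/- alone (WT, 4 mice). The others also carried Crebbp fl/+ (C, 4 mice), Kmt2d fl/+ (K, 4 mice) or both Crebbp fl/+ and Kmt2d fl/+ (CK, 5 mice), so that each mutant lost 1 allele of a histone acetyltransferase, of a histone H3K4 methyltransferase, or of both. There was 1 library per mouse. In a figure legend, the study describes the ATAC-seq mice as female and 8 weeks old. Its text on the immunized mice speaks of littermates matched for sex and age, and its methods state that sex played no part in the design. The labels give no age or sex. The sorted CB and CC libraries of WT mice are not analysed here.

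In the GC, B cells that capture antigen and receive T cell help are selected in the light zone and return to the dark zone to divide. Antigen receptor and CD40 signals together induce Myc, which licenses cell-cycle entry, and MYC in turn induces TFAP4 (AP4), which sustains division. Egr1, Egr2, Egr3 and Nr4a1 are immediate early genes of antigen receptor signalling, Batf encodes an AP-1 factor that pairs with JUN and IRF proteins, and Ccnd2 and Ccnd3 encode D-type cyclins, of which cyclin D3 is the one that dividing dark zone cells depend on. FOXO1 is held out of the nucleus by PI3K signalling and is needed for the dark zone. CREBBP and KMT2D mark enhancers, so the comparison asks whether loss of 1 allele of either or both moved accessibility at these genes.

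Fragments in peaks per library ranged from 17483706 to 21857738, and log2 CPM (fragment counts scaled to a common library size with TMM factors) correlated across peaks, which are not independent replicates, at between 0.977 and 0.986 for mice of the same genotype. Fragments at the starts of 4 Y-linked genes numbered 1087 to 1317 in 9 libraries (2 of WT, 2 of C, 3 of K and 2 of CK) and at most 1 in the other 8, so each genotype held libraries with and without Y signal. This goes against the description of the mice as female, and values within each kind of library are given with the called peaks. The share of fragments in promoter peaks (within 1 kb of a protein-coding start) was 54.0% to 56.0% for WT, 54.0% to 55.6% for C, 55.4% to 58.1% for K and 56.1% to 57.7% for CK. The promoters of all 8 GC B cell marker genes had a peak (summed level 699 to 768 CPM for WT, 666 to 726 for C, 705 to 716 for K and 650 to 708 for CK). Cd3e, Cd4 and Cd8a, Itgam, Lyz2 and Hbb-bs had no promoter peak. The T cell list (2 of 5 genes with a promoter peak, Cd3d and Lck) summed to between 48.0 and 62.0 CPM, the plasma cell list (3 of 3) to between 137 and 165, and the myeloid list (2 of 4) to at most 4.85. The window sums of the targeted genes did not pass the test in any mutant (Crebbp, 254 ± 11.3 CPM in WT and 244 ± 9.29 in C, SD, n = 4 each, and Kmt2d, 374 ± 9.61 in WT and 386 ± 13.7 in K, SD, n = 4 each). A window sum is no measure of a deleted exon, so this is no check of the labels.

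The 10 loci were open in all 4 genotypes, and no window sum passed the test of a difference between them. The sum of the peaks in each gene's window was compared over all 18058 protein-coding genes with at least 1 peak. With edgeR's quasi-likelihood test and Benjamini-Hochberg adjustment over these genes, 0 of the 10 loci passed an adjusted p of 0.01 in C, K or CK against WT. The background of gene windows called was 0.426% in C, 2.71% in K and 11.6% in CK. At an unadjusted p under 0.05 there were 1, 1 and 2 loci, and DESeq2 called 0, 0 and 1. CK against C also gave 0 loci (background 4.06%, 0 at an unadjusted p under 0.05), CK against K 0 (background 0.0%, 1 at that p), the departure of CK from additive C and K changes 0 (background 0.0886%, 0 at that p) and any difference among the genotypes 0 (background 10.7%, 2 at that p), and DESeq2 called 0 in each of these. The fitted changes of the loci ran from -0.09 to 0.06 (log2) in C, from -0.12 to 0.04 in K and from -0.08 to 0.04 in CK, with medians of -0.03, 0.00 and -0.01 beside -0.02, 0.03 and 0.03 over all gene windows. The direction of the calls over all genes depended on the scaling. In CK, 32.3% of the called gene windows were lower, 46.4% with loess offsets and 85.2% with offsets that centre each library by GC content. With those GC offsets, 27.2% of all gene windows were called in CK and 5.6% in K, 4 and 2 of the 10 loci were among them, and the values of these loci are given with each gene.

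**Figure D1:**
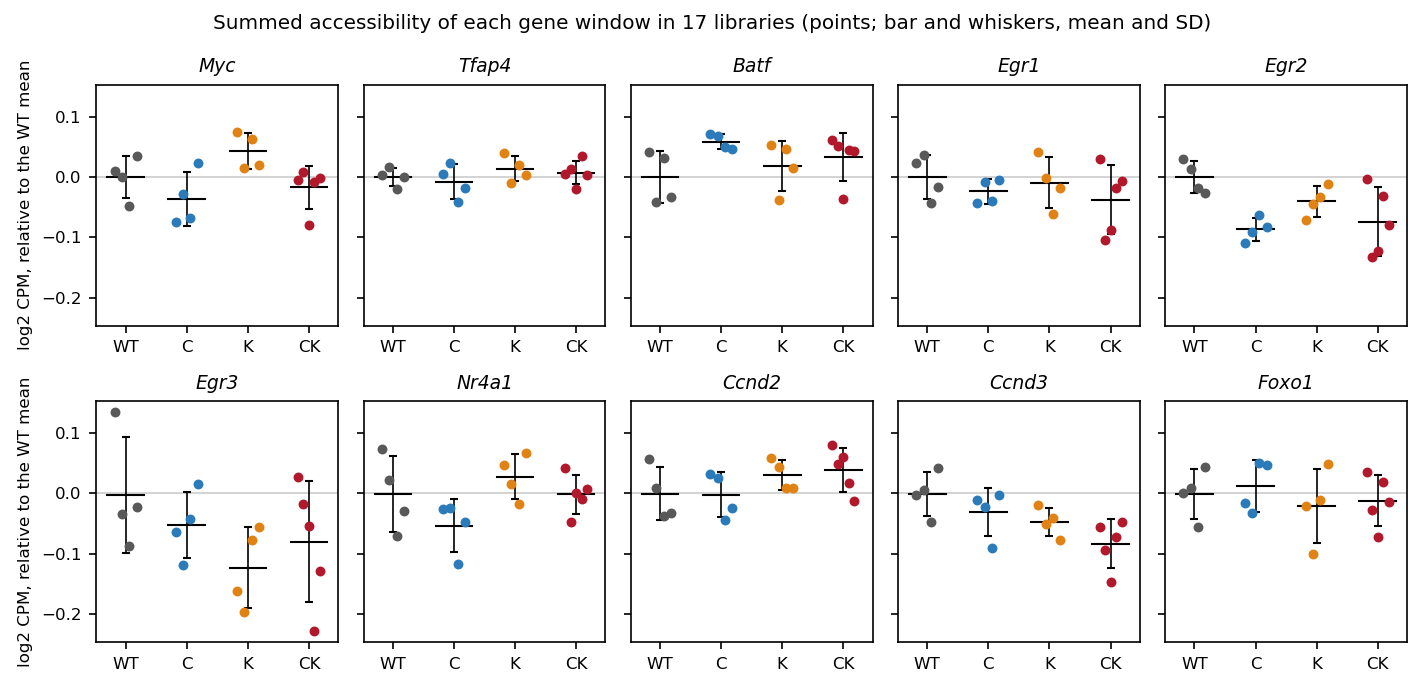
Summed accessibility of the 10 gene windows in each of the 17 libraries, as log2 CPM relative to the WT mean (vertical axis) by genotype (horizontal axis). Points are libraries, and bars and whiskers are the mean and SD. All groups overlap WT except Ccnd3 in CK (below), Egr2 in C (below) and Batf in C (above).

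To compare levels between genes, the window sums were divided by the length of the peaks in them. In WT, the Egr1 window was the most accessible at 26.1 ± 0.652 CPM per kb of peak (SD, n = 4), and the Batf window the least at 9.44 ± 0.282. Between these lay Egr3 (22.3 ± 1.52), Nr4a1 (20.8 ± 0.909), Myc (19.8 ± 0.476), Ccnd3 (19.05 ± 0.479), Ccnd2 (18.5 ± 0.570), Tfap4 (15.2 ± 0.158), Egr2 (14.2 ± 0.258) and Foxo1 (11.1 ± 0.315), all in CPM per kb. The ranges of Egr3 and Nr4a1 overlapped, as did those of Nr4a1 and Myc, Myc and Ccnd3, and Ccnd3 and Ccnd2. All genes were measured in the same libraries, and overlap of ranges takes no account of this. Whether these neighbours differ within a library was not tested. Every other neighbour was separated by all 4 WT libraries. The promoter peak took 65.9% of the window's signal at Myc and 47.0% at Egr2, but 10.6% at Nr4a1 and 10.6% at Ccnd3. Peaks away from any protein-coding start held 49.3% of the signal at Nr4a1 and 57.5% at Ccnd3, and the rest lay in other promoter peaks of the same or of neighbouring genes.

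Few single peaks passed the test. In C, 0 of the 149 member peaks were called (edgeR, adjusted p under 0.01 over all 65483 peaks, background 0.16%), with 18 at an unadjusted p under 0.05 and 0 called by DESeq2. In K, 1 was called (0.671%, background 1.48%), a loss. In CK, 6 were called (4.03%, background 6.84%), of which 4 fell and 2 rose (background 3.3% lower and 3.54% higher). CK differed from C at 1 member peak (background 1.68%) and from K at 0 (background 0.00916%, 8 at an unadjusted p under 0.05, 0 by DESeq2). The departure of CK from additive C and K changes was called at 0 (background 0.0107%, 3 at an unadjusted p under 0.05, 0 by DESeq2). The test of any difference among the 4 genotypes called 4 (background 5.62%). Whether the member share differs from the background was not tested. Without WT replicate 4, 1 member peak was called in CK, the one upstream of Egr1. With Y signal as present or absent in the fit, all 6 calls in CK were kept (adjusted p up to 0.00709), as was the call in K (0.00733). With the share of fragments on Y as a covariate instead, 1 of the 6 was kept, the peak upstream of Egr1 (adjusted p = 0.00204), the other 5 had adjusted p between 0.0114 and 0.104, and the call in K was lost (0.0102). That share does not separate the 2 kinds of library, since it was 0.0278% to 0.0704% with Y signal and 0.0246% to 0.101% without. With offsets by GC content, 70.7% of all peaks called in CK were lower, against 48.2% without them. The median change of the member peaks was 0.00 in C, -0.01 in K and -0.03 in CK (log2), beside 0.00 in each over all peaks.

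**Figure D2:**
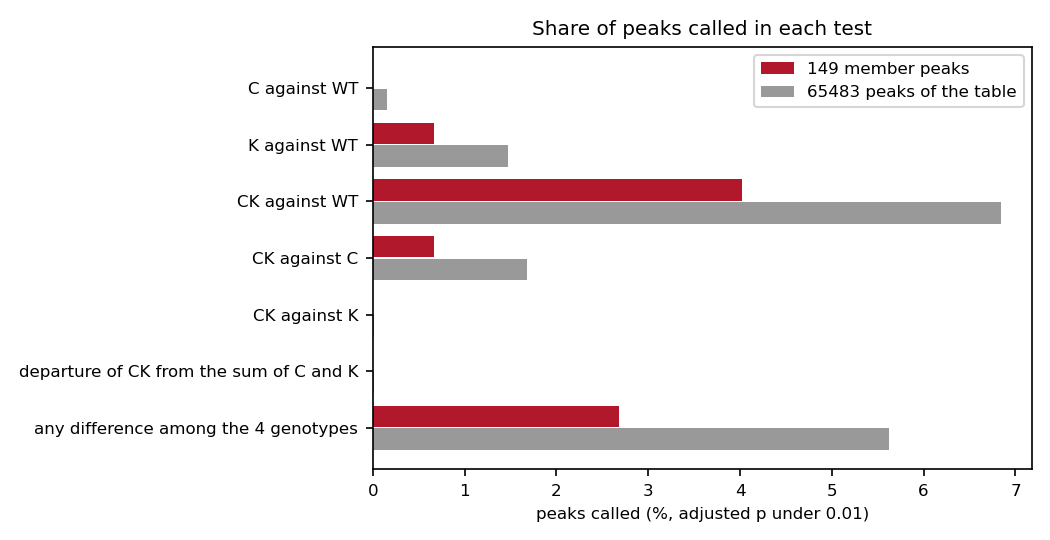
Share of peaks called at an adjusted p under 0.01 (horizontal axis, percent) in each of 7 tests (vertical axis), for the 149 member peaks and for all 65483 peaks. The member share was below the share of all peaks in each of the 7 tests, such as K (0.671% and 1.48%) and CK (4.03% and 6.84%). In C, in CK against K and in the departure from additive changes, 0 member peaks were called. There the share of all peaks (0.16%, 0.00916% and 0.0107%) was smaller than the share that 1 member peak makes (0.671%), so 0 calls say little. The member share rests on few peaks (1 in K and 6 in CK), and whether the shares differ was not tested.

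Of the 149 peaks, 13 lay at a promoter of their own gene, 12 at a promoter of another gene, and 124 away from any protein-coding start. Libraries of CK and WT did not overlap at 16 member peaks (6 above and 10 below WT, background 13%), those of K and WT at 18 (7 above and 11 below, background 11.3%), and those of C and WT at 8 (6 above and 2 below, background 5.66%). At distal peaks the median change in CK was -0.05 for members and -0.03 for all, and at own promoters 0.01 for members beside 0.06 for all promoter peaks (log2). In the middle 300 bases of each peak, the E-box CAGCTG that TFAP4 and E-proteins bind was found in 26.2% of member peaks and 17.2% of all peaks, and the MYC-type E-box CACGTG in 10.1% and 5.88%. The AP-1 motif TGANTCA was in 8.72% and 8.92%, and the forkhead motif GTAAACA in 3.36% and 3.97%. Also searched were the CRE motif TGACGTCA (0.671% and 0.623%), the EGR motif GTGGGCG (5.37% and 4.06%) and the NBRE motif AAAGGTCA (2.01% and 1.35%). The PU.1 motif GAGGAAGT was in 6.04% and 5.84%, and the CArG box in 2.68% and 1.26%. Whether these shares differ was not tested. Both strands were searched, none of these motifs contains another, and a match is no evidence of binding. The median GC content was 50.6% in member peaks and 48.2% in all.

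**Figure D3:**
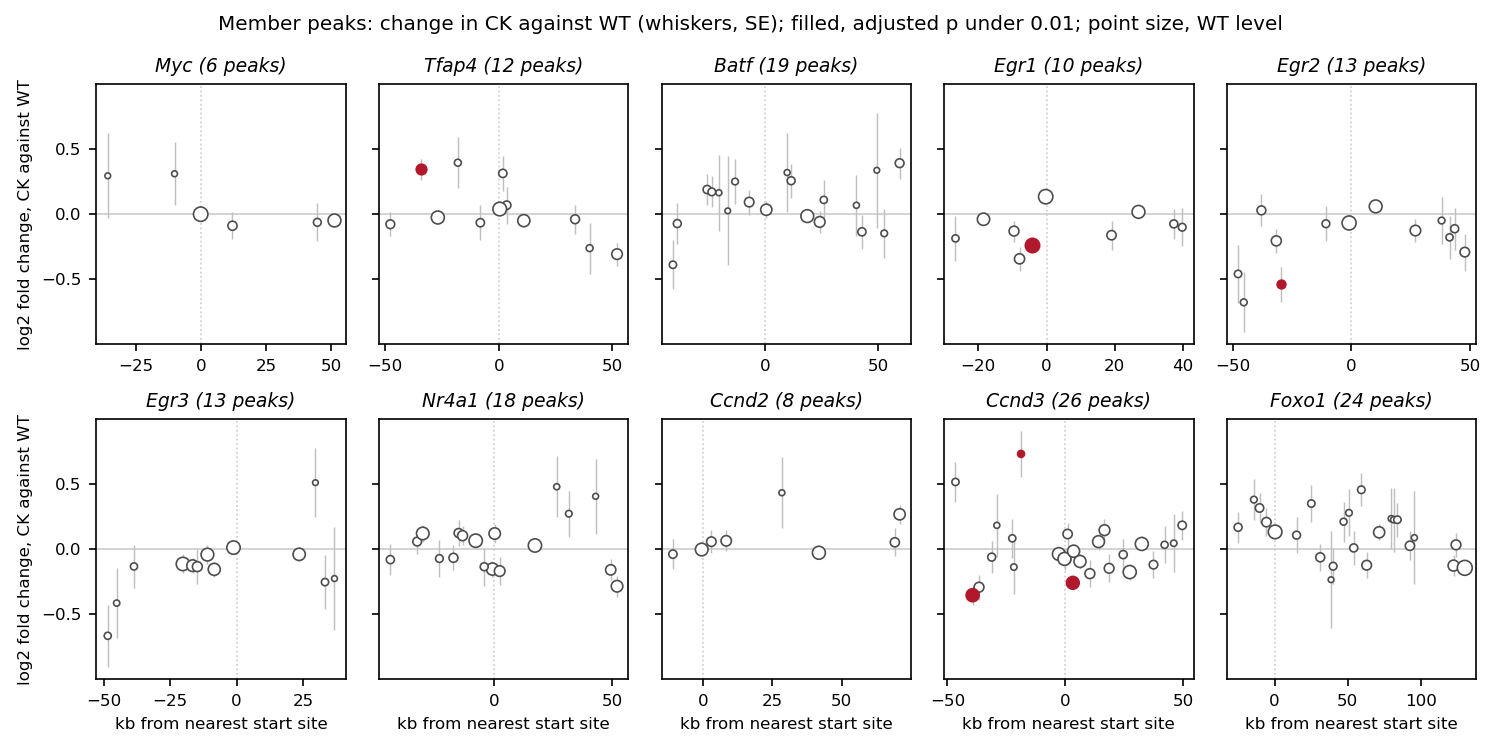
Change in CK against WT (vertical axis, log2 fold change, whiskers SE) of every member peak by its distance from the nearest start of its gene (horizontal axis, kb, negative upstream). Filled points passed an adjusted p of 0.01, and point size rises with the WT level. The 6 filled points are 3 at Ccnd3 and 1 each at Egr1, Egr2 and Tfap4.

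Myc (mm10 chr15:61985391-61990374, plus strand), whose induction marks positively selected cells, did not pass the test at its promoter or across its window in any mutant. The window held 6 peaks, all nearer to Myc than to any other protein-coding start. In CPM, the window sum was 219.7, 218.2, 211.0 and 223.5 for WT, 207.2, 213.8, 208.1 and 221.7 for C, 229.7, 220.4, 227.7 and 221.2 for K, and 217.4, 219.5, 206.4, 216.8 and 218.0 for CK. The K libraries were high and the C libraries low, but each group overlapped WT. The change against WT was -0.04 ± 0.03 in C (log2, SE, adjusted p = 0.739), 0.04 ± 0.03 in K (adjusted p = 0.351) and -0.02 ± 0.03 in CK (adjusted p = 0.696), which puts the CK window between -0.07 and 0.04 at 2 SE. The promoter peak (4918 bp over the Myc start) was at 144 ± 3.49 CPM in WT (SD, n = 4) and 144 ± 5.35 in CK (SD, n = 5), a change of 0.00 ± 0.04 (log2, SE). The most accessible distal peak, 51.2 kb downstream over an exon of the noncoding gene Pvt1, was at 60.8 ± 2.74 CPM in WT and 58.7 ± 3.80 in CK (adjusted p = 0.531). The member peak with the lowest p for CK, 10.1 kb upstream, was faint (0.757 ± 0.170 CPM for WT and 0.945 ± 0.231 for CK, adjusted p = 0.432).

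Tfap4 (chr16:4544661-4559854, minus strand), the MYC target that prolongs division, did not pass the test at its promoter (91.2 ± 2.55 CPM for WT, 90.4 ± 2.37 for C, 95.7 ± 1.28 for K and 93.6 ± 1.97 for CK, SD, n = 4, 4, 4 and 5, adjusted p = 0.527 for CK) or in its window (change of 0.01 ± 0.02 for CK, log2, SE, adjusted p = 0.842, but -0.08 and called with GC offsets, adjusted p = 0.00849). Its strongest distal peak, intergenic and 26.8 kb upstream, was at 64.6 ± 1.37 CPM in WT and 63.5 ± 2.87 in CK (adjusted p = 0.732). The gene lies 331 kb from Crebbp on chromosome 16, so in C and CK an effect of the targeted Crebbp allele in cis cannot be told apart from one of lower CREBBP. Of its 12 peaks, 2 were called, and both were nearer to other genes. The first (chr16:4500424-4501411) lay in an intron of Srl, 52.0 kb past the Tfap4 start. Its level was 18.7, 16.8, 18.9 and 17.6 CPM for WT and 17.6, 18.7, 18.8 and 17.6 for C, against 12.9, 12.4, 15.1 and 12.96 for K and 15.2, 14.8, 16.3, 15.04 and 11.2 for CK. All K and all CK libraries lay below all WT libraries, while those of C overlapped WT. It fell by 0.43 ± 0.09 in K (log2, SE, adjusted p = 0.00789), and its change in CK was -0.31 ± 0.09 (adjusted p = 0.0179). The call in K was lost on leaving out any of 10 libraries (3 of K, 3 of C and all 4 of WT), with adjusted p up to 0.0329. Within libraries with and without Y signal the K change was -0.38 and -0.55 (log2 of means). The second (chr16:4592861-4595745) was the promoter of Glis2, a zinc finger gene, 34.4 kb upstream of Tfap4. It was at 16.4, 14.9, 13.1 and 13.2 CPM for WT and 15.1, 15.9, 15.3 and 14.4 for C, against 21.01, 18.2, 16.9 and 17.3 for K and 18.6, 18.9, 16.7, 18.5 and 18.7 for CK. All K and CK libraries were above all WT libraries. It rose by 0.34 ± 0.08 in CK (log2, SE, adjusted p = 0.00536), with 0.35 ± 0.09 in K (adjusted p = 0.0173) and 0.24 and 0.46 in CK libraries with and without Y signal. The call was lost with offsets by GC content (change of 0.18, adjusted p = 0.0897), with 6 single libraries left out, and with only WT and CK fitted (adjusted p = 0.0105). The share of fragments in promoter peaks was also higher in CK, and its part in this gain was not tested. The middle of the Srl intron peak is printed because it is the member peak called in K, and its capitals mark the match to the CRE motif TGACGTCA, found in 0.623% of all peaks.
Srl intron peak in the Tfap4 window, mm10, plus strand, chr16:4500768-4501067: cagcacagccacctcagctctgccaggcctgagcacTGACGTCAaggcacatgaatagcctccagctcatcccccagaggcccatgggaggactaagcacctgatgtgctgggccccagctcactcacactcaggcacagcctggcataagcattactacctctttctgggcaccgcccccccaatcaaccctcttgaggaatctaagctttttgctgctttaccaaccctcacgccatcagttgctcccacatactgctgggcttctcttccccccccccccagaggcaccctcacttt

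Batf (chr12:85686669-85709087, plus strand), which pairs with JUN proteins and IRF4 or IRF8 in activated B cells, had 19 peaks and 0 calls. Its window sum was 159.2, 150.2, 158.1 and 151.2 CPM for WT, 162.5, 162.1, 160.0 and 159.6 for C, 160.4, 150.5, 159.7 and 156.2 for K, and 161.4, 160.3, 150.8, 159.5 and 159.3 for CK. The 4 C libraries lay above the 4 WT libraries, but the change was 0.06 ± 0.03 (log2, SE, adjusted p = 0.544), and 7.39% of all gene windows separated C from WT. In CK the change was 0.03 ± 0.03 (adjusted p = 0.432). The promoter peak was at 25.2 ± 1.13 CPM in WT and 25.9 ± 2.20 in CK. The strongest distal peak, in an intron 18.7 kb into the gene, was at 58.2 ± 2.32 and 57.5 ± 1.85 (SD, n = 4 and 5). The lowest p in CK was at the promoter of the transporter gene Flvcr2 (6.98 ± 0.648 CPM in WT and 9.16 ± 1.32 in CK, adjusted p = 0.0266).

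Among the antigen receptor early genes, the lowest adjusted p was at Egr1 (chr18:34859823-34864984, plus strand). The most accessible distal peak of its window (chr18:34854363-34856601), intergenic and 4.3 kb upstream of the start, was at 114.9, 111.1, 105.4 and 109.8 CPM for WT, 103.9, 109.1, 102.9 and 108.7 for C, 97.9, 97.3, 98.7 and 101.5 for K, and 96.9, 92.4, 92.5, 93.7 and 90.9 for CK. Every K library and every CK library lay below every WT library, every CK library also lay below every K and every C library, and C overlapped WT. Against WT it fell by 0.24 ± 0.04 in CK (log2, SE, adjusted p = 0.000123), which is a fall of the mean by 15.4%. The change was -0.16 ± 0.04 in K (adjusted p = 0.0184) and -0.05 ± 0.04 in C (adjusted p = 0.731). It fell by 0.19 ± 0.04 in CK against C (adjusted p = 0.0043), whereas CK against K did not pass (-0.08 ± 0.04, adjusted p = 0.63). The CK loss was -0.25 and -0.23 within libraries with and without Y signal, and was called under every alternative tried. In a bulk library, a site less open in each cell and a site open in fewer cells cannot be told apart. The call of CK against C was lost on leaving out CK replicate 4 or 5 or C replicate 2 or 4, with adjusted p up to 0.0222, and with the share of fragments on Y as a covariate.

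The Egr1 promoter did not pass the test. It was at 146, 148, 131 and 132 CPM for WT, 134, 138, 138 and 133 for C, 162, 153, 149 and 149 for K, and 166, 140, 144, 155 and 158 for CK. The K libraries lay above those of WT, and CK overlapped them. The change was 0.13 ± 0.05 in CK (log2, SE, adjusted p = 0.0641) and 0.14 ± 0.05 in K (adjusted p = 0.108), and it was -0.17 in CK with offsets by GC content (adjusted p = 0.00141), so its direction depends on that choice. The 8 distal peaks of the Egr1 window summed to between 213 and 218 CPM for WT, 208 and 219 for C, 193 and 205 for K, and 187 and 201 for CK. Fitted over the 17314 genes with a peak outside promoters, this sum fell by 0.16 ± 0.03 in CK (log2, SE, adjusted p = 0.000959), with -0.10 ± 0.03 in K (adjusted p = 0.0502). The called upstream peak is among these distal peaks, so neither this sum nor the ratio below is a result separate from it. Of all 17314 genes, 13.5% were called in CK, and 8.98% were called lower. Within a library, the log2 ratio of promoter to distal signal was -0.72 to -0.54 for WT, -0.72 to -0.60 for C, -0.45 to -0.34 for K and -0.42 to -0.27 for CK. Thus K and CK lay above WT without overlap. K also lay above WT without overlap at Tfap4 (-0.69 to -0.60 against -0.84 to -0.73) and Nr4a1 (-1.43 to -1.36 against -1.58 to -1.44). At Nr4a1 the promoter signal in this ratio sums 2 promoter peaks of the gene (means of 69.1 CPM in WT and 72.2 in K). It is not the single peak at the first annotated start, which is given with that gene and was not higher in K. Over all peaks, the median change in K and in CK was 0.06 at promoter peaks and -0.03 at distal peaks. This ratio was not tested, and its separation was not counted over all genes. The change of the whole Egr1 window, which sums promoter and distal signal, was -0.04 ± 0.03 in CK (adjusted p = 0.396) and -0.01 in K. With GC offsets it was -0.18 in CK (adjusted p = 2.07e-05) and -0.12 in K (adjusted p = 0.00908), both called.

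**Figure D4:**
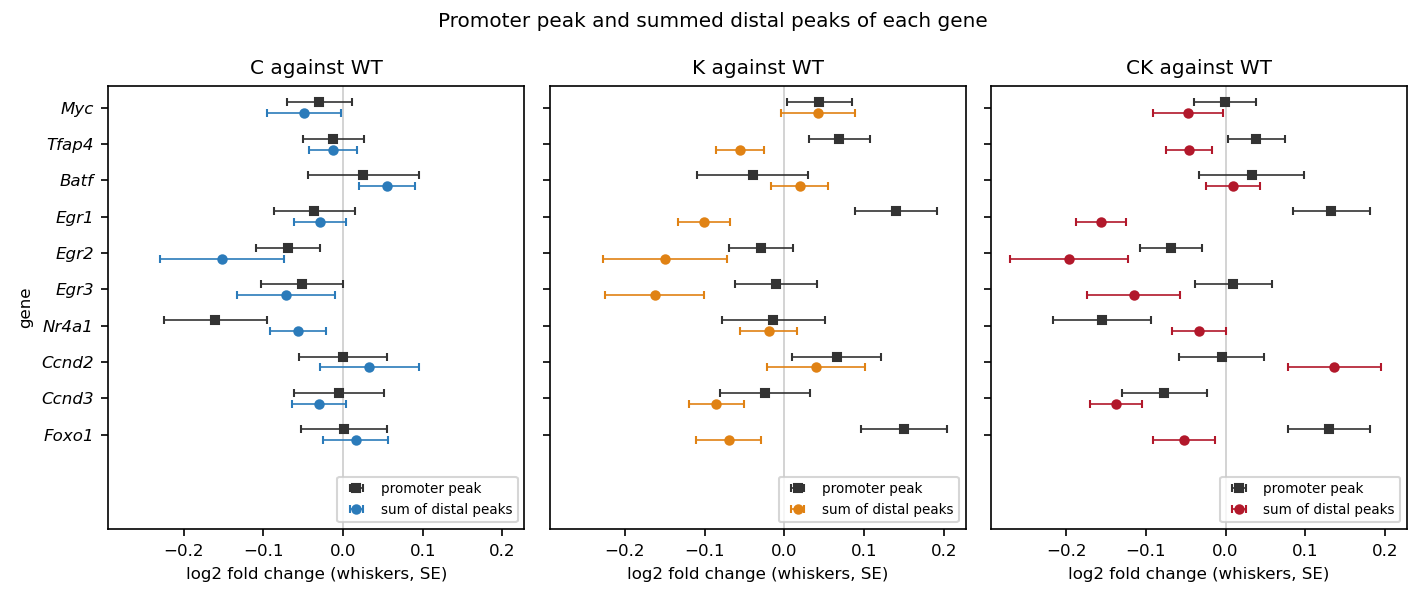
Change of the promoter peak (squares) and of the summed distal peaks (circles) of each gene in C, K and CK against WT (horizontal axis, log2 fold change, whiskers SE). At Egr1 the 2 measures lie on opposite sides of 0 in K and CK (0.13 and -0.16 in CK). They also do in CK at Tfap4 (0.04 and -0.05), Foxo1 (0.13 and -0.05), Egr3 (0.01 and -0.12) and Ccnd2 (-0.01 and 0.14). At Ccnd3 both lie below 0 in CK (-0.08 and -0.14). With GC offsets the Egr1 promoter change in CK was -0.17. The distal sums include the called distal peaks.

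Egr2 (chr10:67535475-67542188, plus strand) and Egr3 (chr14:70077203-70082614, plus strand) encode related zinc finger factors. The Egr2 window was at 253.2, 250.5, 245.0 and 243.6 CPM for WT, 230.0, 232.8, 237.4 and 234.3 for C, 236.0, 240.5, 242.3 and 246.2 for K, and 247.6, 226.2, 227.8, 242.7 and 234.8 for CK. All C libraries were below all WT libraries, but the change of -0.09 ± 0.03 (log2, SE) had an adjusted p of 0.224, and that of CK was -0.07 ± 0.03 (adjusted p = 0.0602). With GC offsets the Egr2 window was called in CK (-0.19, adjusted p = 1.68e-05) and in K (-0.13, adjusted p = 0.00611). Its promoter was at 117 ± 3.63 CPM in WT and 111 ± 4.73 in CK (adjusted p = 0.246). The strongest distal peak, 27.0 kb downstream, was at 17.6 ± 1.58 CPM in WT and 16.1 ± 1.90 in CK (adjusted p = 0.37). Of its 13 peaks, 1 was called, an intergenic peak 29.5 kb upstream (chr10:67505361-67506579) with 56 to 115 fragments per library. Its level was 5.69, 4.49, 5.39 and 5.87 CPM for WT, 3.78, 4.69, 4.25 and 4.30 for C, 3.34, 4.42, 5.29 and 3.97 for K, and 3.64, 3.02, 3.74, 4.53 and 3.46 for CK. CK replicate 4 reached above the lowest WT library, so the groups overlapped. It fell by 0.54 ± 0.13 in CK (log2, SE, adjusted p = 0.00781), or 31.4% of the mean, and the changes of C and K were both -0.33 ± 0.14 (adjusted p = 0.469 and 0.167). Within libraries with Y signal the CK change was -0.32 and without it -0.73. The call was lost on leaving out any of 7 libraries (adjusted p up to 0.0353), with GC offsets (0.0148) and with only WT and CK fitted (0.0109). The middle of this peak is shown because it was the largest loss among the called member peaks, and it holds none of the motifs searched.
Egr2 upstream peak, mm10, plus strand, chr10:67505821-67506120: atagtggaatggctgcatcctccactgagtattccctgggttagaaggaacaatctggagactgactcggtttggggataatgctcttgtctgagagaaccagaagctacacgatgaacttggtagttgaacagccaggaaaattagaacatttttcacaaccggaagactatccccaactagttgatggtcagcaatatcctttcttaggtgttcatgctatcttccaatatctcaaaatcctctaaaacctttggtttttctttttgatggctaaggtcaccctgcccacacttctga

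Egr3 had 13 peaks and 0 calls, and its window had the widest spread within groups relative to its level. Its window was at 385.2, 342.6, 330.1 and 345.4 CPM for WT, 335.5, 323.2, 340.8 and 354.5 for C, 313.6, 306.1, 332.7 and 337.4 for K, and 357.4, 346.4, 338.1, 299.4 and 321.1 for CK. WT replicate 1 was high and the groups overlapped. The change was -0.12 ± 0.05 in K (log2, SE, adjusted p = 0.121), and -0.08 ± 0.05 in CK (adjusted p = 0.244). Without WT replicate 1 these were -0.07 and -0.03. The promoter was at 78.9 ± 5.91 CPM in WT and 79.4 ± 4.90 in CK. The strongest distal peak, 20.2 kb upstream in an intron of Pebp4, was at 79.3 ± 8.40 CPM in WT, 68.1 ± 5.29 in K (adjusted p = 0.0967) and 73.1 ± 8.07 in CK (adjusted p = 0.309). The lowest p in CK was at the faint Pebp4 intron peak farthest upstream, with 14 to 51 fragments per library (2.46 ± 0.205 CPM in WT and 1.55 ± 0.408 in CK, adjusted p = 0.0566), where all K and all CK libraries lay below all WT libraries.

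Nr4a1 (chr15:101254269-101274795, plus strand), the orphan nuclear receptor also called Nur77, had 18 peaks and 0 calls. Its window was at 410.5, 396.0, 371.3 and 382.1 CPM for WT, 383.3, 383.6, 359.6 and 377.2 for C, 402.8, 394.3, 385.2 and 408.4 for K, and 401.4, 377.5, 390.1, 387.5 and 391.9 for CK. The groups overlapped throughout, and the CK change was 0.00 ± 0.03 (log2, SE, adjusted p = 0.987). The promoter peak, at the first annotated start, was at 41.5 ± 2.55 CPM for WT, 37.0 ± 3.38 for C, 41.0 ± 1.52 for K and 37.2 ± 2.54 for CK (adjusted p = 0.0899 for CK). A peak 7.7 kb upstream was the strongest of the window's distal peaks, at 77.5 ± 2.91 CPM in WT and 80.9 ± 3.24 in CK. The lowest p in CK was at an intergenic peak 52.0 kb downstream (29.8 ± 3.07 CPM in WT and 24.4 ± 1.71 in CK, change of -0.29 ± 0.08, adjusted p = 0.0179). Nr4a1 lies 2.38 Mb from Kmt2d on chromosome 15, so in K and CK linkage to the targeted allele cannot be told apart from an effect of KMT2D loss.

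Ccnd3 (chr17:47505051-47599691, plus strand), which encodes cyclin D3, held 3 of the 6 member peaks called in CK. Over all peaks 6.84% were called in CK, and whether the share at Ccnd3 differs was not tested. Ccnd3 had the most peaks of the 10 genes, 26 of the 149, of which 16 were nearest to its own starts. Its window sum was 575.7, 578.6, 558.1 and 593.4 CPM for WT, 572.1, 567.6, 541.8 and 575.6 for C, 568.7, 556.8, 560.2 and 546.5 for K, and 555.0, 540.4, 520.5, 548.3 and 557.7 for CK. All CK libraries were below all WT libraries, which was so for 1 of the 10 loci and for 18.6% of gene windows in either direction. The change was -0.08 ± 0.03 in CK (log2, SE, adjusted p = 0.0336), -0.05 ± 0.03 in K (adjusted p = 0.311) and -0.03 ± 0.03 in C (adjusted p = 0.788). The 20 distal peaks of the window summed to 332 ± 14.1 CPM in WT (SD, n = 4) and 302 ± 6.73 in CK (SD, n = 5). This sum fell by 0.14 ± 0.03 in CK (log2, SE, adjusted p = 0.00364, background 13.5% of all genes called and 8.98% of all genes called lower). The peaks over the gene body alone fell by 0.15 (log2, adjusted p = 0.00224, background 12.9% of all genes called and 2.68% of all genes called lower). The called Ccnd3 peaks that fell, described below, lie in both sums, so these sums are not results separate from them. The whole window was called in CK by DESeq2 (-0.08) and with GC offsets (-0.14, adjusted p = 0.00107).

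The first called Ccnd3 peak (chr17:47507545-47509248) lay 3.2 kb past the first start, over an exon, with 650 to 962 fragments per library. It was at 47.5, 43.3, 42.7 and 47.8 CPM for WT, 44.4, 43.4, 40.0 and 43.9 for C, 42.6, 41.6, 45.0 and 42.6 for K, and 41.5, 35.0, 34.6, 39.6 and 38.4 for CK. The CK libraries lay below all WT libraries, and C and K overlapped WT. It fell by 0.26 ± 0.06 in CK (log2, SE, adjusted p = 0.00269), or 16.6% of the mean, beside -0.08 ± 0.06 in C (adjusted p = 0.755) and in K (adjusted p = 0.502). Within libraries with Y signal the CK change was -0.16 and without it -0.33. The call was lost without WT replicate 1 (adjusted p = 0.0110) and without WT replicate 4 (adjusted p = 0.0165).

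The second (chr17:47552924-47555330) lay in an intron of the longest annotated Ccnd3 form, 39.3 kb before the start of the shorter forms. It was at 43.5, 52.4, 49.8 and 60.7 CPM for WT, 42.7, 44.3, 40.7 and 48.8 for C, 42.8, 44.7, 46.7 and 46.0 for K, and 39.6, 38.9, 39.0, 38.1 and 46.2 for CK. WT replicate 1 and CK replicate 5 overlapped, and the rest of WT was above all CK libraries. It fell by 0.36 ± 0.07 in CK (log2, SE, adjusted p = 0.00169), or 21.8% of the mean, with -0.22 ± 0.08 in C (adjusted p = 0.298) and -0.20 ± 0.08 in K (adjusted p = 0.135). Without WT replicate 4 the CK change was -0.27 (adjusted p = 0.0143). The CK change was -0.30 and -0.42 within libraries with and without Y signal.

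The third (chr17:47485635-47486859), in an intron of the neighbouring gene Taf8 and 18.8 kb upstream of Ccnd3, rose in CK and was faint, with 21 to 65 fragments per library. It was at 1.76, 1.67, 1.73 and 1.16 CPM for WT, 2.78, 2.53, 2.93 and 2.39 for C, 2.55, 3.40, 3.09 and 2.17 for K, and 2.17, 2.26, 2.98, 3.24 and 2.48 for CK. Every mutant library lay above every WT library. It rose by 0.73 ± 0.17 in CK (log2, SE, adjusted p = 0.00593), with 0.81 ± 0.18 in K (adjusted p = 0.0101) and 0.74 ± 0.18 in C (adjusted p = 0.0775). CK was within -0.01 ± 0.16 of C and -0.08 ± 0.16 of K, and its departure from additive C and K changes, -0.82 ± 0.24, did not pass the adjusted test. This was the only called member peak with a change above 1.5-fold. The call in CK was lost without any of 5 libraries (adjusted p up to 0.0349) and with only WT and CK fitted (adjusted p = 0.0112). Within libraries with and without Y signal the CK change was 0.66 and 0.83. The promoter of Ccnd3 at the start of the shorter forms was at 61.2 ± 2.82 CPM in WT and 58.1 ± 4.69 in CK (adjusted p = 0.371), and its strongest distal peak, intronic, at 68.0 ± 3.91 and 60.1 ± 2.73 (adjusted p = 0.0586). The middles of these peaks are shown because the peaks were called, with CAGCTG in capitals in the Taf8 intron and no searched motif in the others. Where within a peak its change lies was not tested.
Ccnd3 peak 3.2 kb past the first start, mm10, plus strand, chr17:47508247-47508546: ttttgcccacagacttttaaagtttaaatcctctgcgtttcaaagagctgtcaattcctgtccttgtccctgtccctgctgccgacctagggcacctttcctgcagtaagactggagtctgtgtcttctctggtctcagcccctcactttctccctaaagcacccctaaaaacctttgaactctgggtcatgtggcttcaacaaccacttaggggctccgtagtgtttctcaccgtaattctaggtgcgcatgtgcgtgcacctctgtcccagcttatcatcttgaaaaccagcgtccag
Ccnd3 intronic peak, mm10, plus strand, chr17:47553978-47554277: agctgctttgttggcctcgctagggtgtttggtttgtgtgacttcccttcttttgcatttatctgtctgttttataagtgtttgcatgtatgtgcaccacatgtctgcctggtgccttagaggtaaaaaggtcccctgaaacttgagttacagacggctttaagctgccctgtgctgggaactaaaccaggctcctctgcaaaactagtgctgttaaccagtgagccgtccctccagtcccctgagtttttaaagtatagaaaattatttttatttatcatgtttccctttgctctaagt
Taf8 intron peak, mm10, plus strand, chr17:47486098-47486397: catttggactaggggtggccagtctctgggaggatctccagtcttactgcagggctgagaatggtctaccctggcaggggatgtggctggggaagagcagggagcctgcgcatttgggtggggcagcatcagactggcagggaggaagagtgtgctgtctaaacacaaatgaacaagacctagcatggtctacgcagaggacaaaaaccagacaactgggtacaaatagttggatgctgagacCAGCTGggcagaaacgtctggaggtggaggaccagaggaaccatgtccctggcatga

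**Figure D5:**
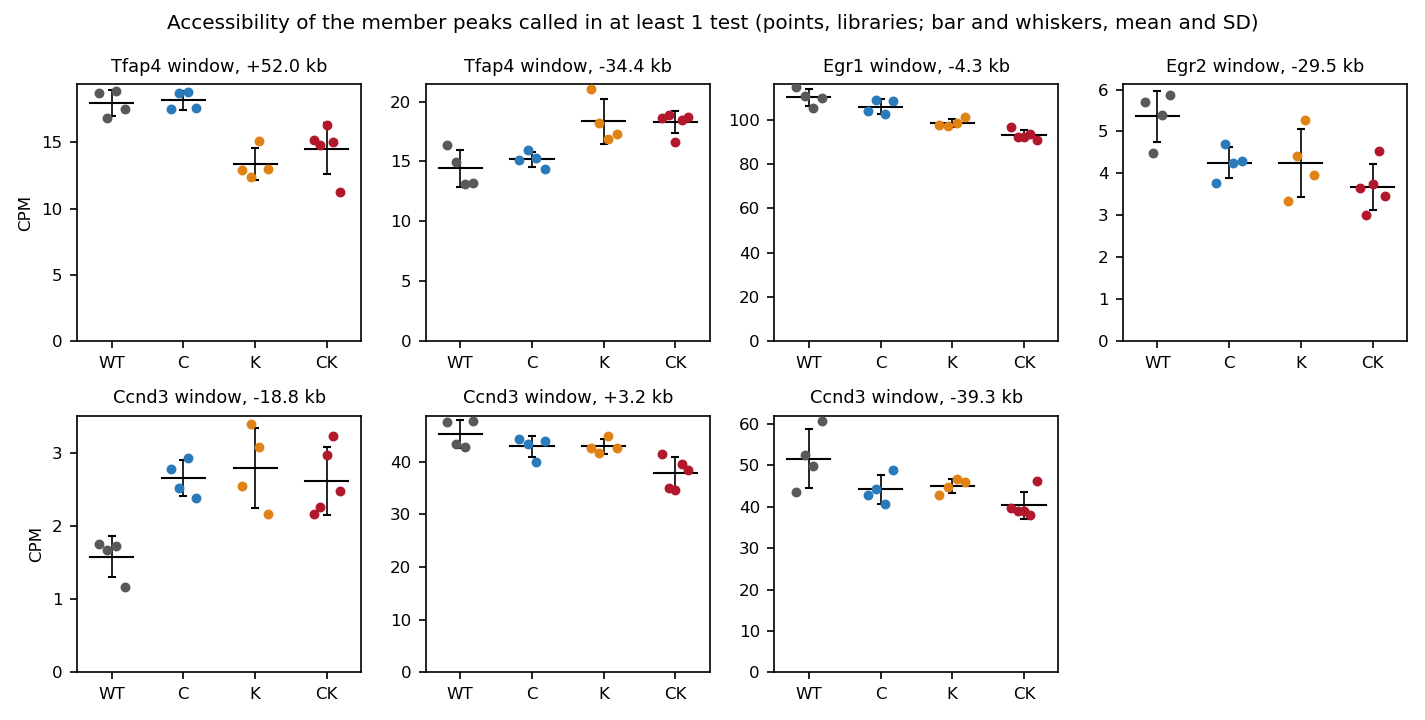
Accessibility (vertical axis, CPM) of the 7 member peaks called in at least 1 test, by genotype (horizontal axis). Points are libraries, and bars and whiskers are the mean and SD. At the Egr1 peak 4.3 kb upstream all K and CK libraries lie below all WT libraries, and the Taf8 intron peak (18.8 kb upstream of Ccnd3) is higher in every mutant library.

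Ccnd2 (chr6:127125162-127152193, minus strand), the other D-type cyclin gene, had 8 peaks and 0 calls. Its window was at 190.5, 184.3, 178.4 and 179.0 CPM for WT, 187.1, 186.4, 177.6 and 180.1 for C, 190.7, 188.6, 184.3 and 184.3 for K, and 193.5, 189.3, 190.9, 185.3 and 181.4 for CK. The groups overlapped, and the CK change was 0.04 ± 0.03 (log2, SE, adjusted p = 0.322). The promoter was at 53.0 ± 4.32 CPM in WT and 52.8 ± 2.67 in CK. The strongest distal peak was also the one with the lowest p, over an exon of Fgf23, 70.8 kb past the Ccnd2 start (25.2 ± 1.49 CPM in WT and 30.3 ± 3.39 in CK, change of 0.26 ± 0.07, adjusted p = 0.0163).

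Foxo1 (chr3:52268336-52353221, plus strand), the dark zone factor that PI3K signalling restrains, had 24 peaks, all nearer to Foxo1 than to any other protein-coding start, and 0 calls. Its window was at 426.0, 428.5, 409.7 and 438.9 CPM for WT, 421.3, 416.1, 440.8 and 440.0 for C, 419.8, 397.3, 422.4 and 440.3 for K, and 436.1, 417.7, 405.2, 431.6 and 421.5 for CK. The groups overlapped, and the CK change was -0.01 ± 0.03 (log2, SE, adjusted p = 0.827), between -0.07 and 0.05 at 2 SE. With a window of 20 kb it was 0.12 and called (adjusted p = 0.00273). The promoter was at 91.3 ± 7.01 CPM in WT and 99.9 ± 4.83 in CK (change of 0.13 ± 0.05, adjusted p = 0.0862), and it turned to -0.03 with GC offsets. The strongest of all member peaks, intergenic and 130.3 kb past the start, was at 198 ± 10.6 CPM for WT, 188 ± 9.47 for C, 181 ± 11.9 for K and 179 ± 9.97 for CK (change of -0.15 ± 0.05 for CK, adjusted p = 0.0445). The lowest p was at a faint intronic peak (3.37 ± 0.357 CPM in WT and 4.59 ± 0.567 in CK, adjusted p = 0.0174), at which every CK and every C library exceeded every WT library.

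Few partner genes of the same pathways passed the test. Their values are from the fit with TMM factors alone, and GC offsets and the other alternatives were not examined for them. Over 53 genes in 5 lists, all with peaks, window sums were called for 0 in C (4 at an unadjusted p under 0.05, background 0.426%), 2 in K (1 higher and 1 lower, background 2.71%) and 4 in CK (2 higher and 2 lower, background 11.6%). In the list of antigen receptor early genes and EGR corepressors, 1 of 9 rose in CK: Nr4a2, a relative of Nr4a1, from 22.3 ± 2.94 CPM in WT to 31.0 ± 3.09 (SD, n = 4 and 5, change of 0.47 ± 0.09, adjusted p = 0.000642), also in CK against C (adjusted p = 0.00861). Among G1 phase genes, 1 of 16 rose: Rb1, the retinoblastoma repressor of E2F, by 0.12 ± 0.03 in K (adjusted p = 0.00974) and 0.13 ± 0.03 in CK (adjusted p = 0.000906). Rb1 was also higher in CK against C, by 0.11 ± 0.03 (adjusted p = 0.00819). In that comparison 2 of the 53 genes were called higher and 0 lower (background 4.06%). Among PI3K and FOXO genes, 1 of 11 fell: Sgk1, a kinase that phosphorylates FOXO factors, by 0.18 ± 0.04 in K (adjusted p = 0.00401) and 0.16 ± 0.04 in CK (adjusted p = 0.00198). Among BATF partners, 1 of 7 fell: Irf8, by 0.17 ± 0.04 in CK (adjusted p = 0.00761), from 643 ± 43.7 to 573 ± 32.6 CPM. Of the MYC network, 0 of 10 were called against WT (0, 3 and 2 at an unadjusted p under 0.05 in C, K and CK), with a median change of 0.04 in CK beside 0.03 over all genes (log2). Mycn was at 0.35 in CK with an adjusted p of 0.0161.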

How the data were processed

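ATAC-seq libraries of sorted GC B cells from 17 mice were used. Per the study's methods and the file headers, the authors aligned reads to mm10 with the nf-core ATAC-seq pipeline 1.2.1 and deposited a table of raw counts of fragments over consensus peaks, made with featureCounts 2.0.1 and run for paired reads with a fragment counted in each peak it overlapped by at least 0.2. Whether reads were shifted for the transposase is not given in the sources used here. No value column was left out. A peak belonged to a gene if it overlapped the GENCODE M21 gene body extended by 50 kb, and a promoter peak lay within 1 kb of a protein-coding start.

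Peaks under 10 counts in all libraries together were to be removed (0 were). Peak counts, and counts summed per gene window over 18058 protein-coding genes, were fitted in edgeR 4.0.16 (R 4.3.3) with TMM factors, 17 libraries and 1 coefficient per genotype, and tested by edgeR's quasi-likelihood method, with Benjamini-Hochberg adjusted p-values called under 0.01. CPM are counts scaled to a common library size with TMM factors, from 17483706 to 21857738 fragments per library. SE is the log2 fold change over the square root of F. Scripts were tested on simulated data. The labels number the libraries but name no shared litter or day. Deviations from the group means of same-numbered libraries correlated above 0.1 in all 4 pairs of WT and C (0.14 to 0.22), and not in all pairs of any other 2 genotypes, so a replicate block was an alternative. Each gene was named with its promoter peak, its strongest distal peak, the peak with the lowest p in CK, and every called peak. Alternatives were DESeq2 1.42.0, other scalings, filters, thresholds, covariates, windows and leaving out each library. Y signal as present or absent was added after seeing the data. Genome sequence came from GRCm38, and motifs were matched on both strands in the middle 300 bases. The members and lists were chosen with earlier results of these data known.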

Additional observations from a re-analysis of the deposited data

Results flagged for a closer look

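Among 164 sets of libraries (each genotype at each window and named peak), 12 held a library far from the others of its group by Dixon's test, and chance flags about 1 in 20 such sets. CK replicate 3 was the low library in 4 of them: the Myc window (206.4 CPM, the next at 216.8), the Batf window (150.8, the next at 159.3), the Batf promoter (22.1, the next at 26.1) and the Glis2 promoter in the Tfap4 window (16.7, the next at 18.5). CK replicate 5 was high at the Pvt1 exon peak of the Myc window (65.3 CPM, the next at 58.1) and at the called Ccnd3 intronic peak (46.2, the next at 39.6). WT replicate 4 was high at the Pvt1 exon peak (64.8, the next at 59.9) and at the faint Pebp4 intron peak farthest upstream of Egr3 (2.77, the next at 2.39), and low at the Taf8 intron peak (1.16, the next at 1.67). WT replicate 1 was high at the Egr3 peak 20.2 kb upstream (91.8, the next at 75.9). K replicate 2 was low at the intronic Batf peak (54.8, the next at 59.3), and C replicate 2 was low at the Egr2 peak 27.0 kb downstream (14.9, the next at 15.98).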

How the results depend on the processing

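The counts of member peaks called in C, in CK against K and in the departure of CK from additive C and K changes stayed at 0 under every alternative run, as did the loci called in these tests. Of the member peaks called in K (1), CK (6), CK against C (1) and any difference (4), an adjusted p of 0.05 gave 5, 16, 7 and 13, DESeq2 4, 10, 3 and 10, and a change above 1.5-fold 0, 1 and 0 for the first 3. GC offsets gave 2, 11 and 2, and the share of fragments on Y as a covariate 0, 1 and 0. A window of 100 kb gave 3, 11 and 2, gene bodies alone 0, 2, 0 and 0, 20 kb 0 in K and 2 for any difference, and peaks nearest to the gene 0 and 1. DESeq2 size factors gave 2 and loess offsets 3 in K, fitting only WT and CK gave 3 in CK, total counts gave 7 and Y signal as present or absent 9 for any difference. Leaving out single libraries gave 0 to 2 in K, 1 to 7 in CK, 0 to 1 in CK against C and 2 to 6 for any difference. In CK the lowest count, 1, came without WT replicate 4. Loci called in CK were 1 with an adjusted p of 0.05, DESeq2, gene bodies alone, nearest peaks, 20 kb and the replicate block, 2 without promoter peaks and 4 with GC offsets. GC offsets also gave 2 in K, 1 in CK against C and 3 for any difference, and gene bodies alone and distal peaks gave 1 for any difference. The cause of these differences was not tested.

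Changes called with the opposite sign were those of the Tfap4 window (-0.0803) and the Egr1 promoter (-0.17) with GC offsets and of the Foxo1 window within 20 kb (0.12), all in CK. With the replicate number as a block, 4, 12, 3 and 11 member peaks were called in K, CK, CK against C and any difference. The Ccnd3 window was then called in CK (adjusted p = 0.00385) and the Egr2 upstream peak was not (0.0105). In C, where all 4 same-numbered pairs with WT correlated above 0.1, the block changed no call. Elsewhere the correlation of same-numbered libraries was above 0.1 in 1 to 3 of 4 pairs, so there they are treated as sharing only a number. Over all 24 pairs it was above 0.1 in 12 of the 13 alike in Y signal (lowest 0.0637) and in 0 of the 11 unlike in it (highest 0.0723), and the part of Y signal in the block was not tested. Changes of single windows and peaks kept their direction and side of the threshold, or moved by less than 1 SD where no test applied, in 1880 of the recomputed values. They lost the call in 50, gained it in 26 and moved by more in 79. The faintest called peak, in the Taf8 intron, rests on 21 to 65 fragments per library.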
